A study of Mus musculus with 8 samples.

Results

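The 34 genes described here were grouped for the cells that build brain blood vessels. These are endothelial cells, which line the vessel, and mural cells, the pericytes and smooth muscle cells that wrap it. Not every gene is particular to these cells, and Icam4 is best known from red blood cells. Members were taken by gene name among the non-control probes of the array, and all 34 were found among 30139 gene names, on 41 of 39429 probes. They were measured in whole hippocampus of adult C57BL/6 mice on Agilent arrays with 1 colour. CKO mice carried Ctcf loxP/loxP and were positive for Camk2a-Cre. WT mice carried the same Ctcf loxP/loxP alleles and were Cre negative, so floxed Ctcf was common to both groups and an effect of Cre itself cannot be told apart from one of Ctcf deletion. The Camk2a promoter drives Cre in excitatory neurons of the forebrain, and vessel cells are not its target. Each genotype had 3 pools, each from 3 mice. Pool 1 mixed 2 females with 1 male (19-23 weeks), pool 2 was female only (18-19 weeks) and pool 3 was male only (15-17 weeks), in CKO and WT alike. Pool 1 of each genotype was run on 2 arrays, giving 8 arrays on 2 slides, and all mice had first been through behavioural tests. In both genotypes slide 1 held the first array of pool 1 and pool 2. Slide 2 held pool 3 and the second array of pool 1.

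Brain endothelium differs from that of other organs in its continuous tight junctions and in its transporters, which carry glucose and lipids inward and pump drugs out. This barrier is induced by Wnt signals from neural tissue and is maintained with the help of pericytes. Adhesion molecules on the endothelium (the ICAMs, VCAM-1 and the selectins) hold leukocytes at the vessel wall and are induced in inflammation. Contractile proteins such as smooth muscle actin are found in the mural cells of arterioles. In bulk tissue, fewer vessel cells and less RNA per cell cannot be told apart.

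Values are log2 signal minus the 75th percentile of the array, so a value of 0 is a signal at that percentile, and levels of different genes are not comparable. Testing required a probe to be well above background on all arrays of CKO, of WT or of both, and the brightest such probe stood for its gene. Of the 34 members, 31 passed, and Icam1, Sele and Selp did not. The defining markers were present: those of endothelium (Cldn5, Pecam1, Flt1, Cdh5, Tie1, Slco1a4), pericytes (Pdgfrb, Rgs5, Abcc9, Vtn, Kcnj8) and smooth muscle (Acta2, Tagln, Myl9, Myh11, Cnn1) were all measured. The 75th percentile of signal ran from 2112 to 5104 over the arrays, and 59.2% to 66.0% of spots were well above background. The second arrays of pool 1 were the dimmest, at 2883 (CKO) and 2112 (WT). Ctcf itself was at 0.18, 0.16 and 0.05 in CKO pools, against 0.83, 1.12 and 1.04 in WT pools (difference -0.87, SE 0.13, adjusted p = 0.142, and 0.0292 with pool number as a block).

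No endothelial or mural gene passed an adjusted p of 0.05 in the comparison of CKO with WT pools, where 8 of 18334 genes (0.0436%; 7 higher and 1 lower, and 5 and 0 with quantile scaling) did. With pool number as a block, 1 member passed, Icam4, lower in CKO, where 103 genes (0.562%) did. At an unadjusted p under 0.05 there were 2 of 31 members, Icam4 and Ly6a, beside 5.48% of all genes. The same 2 members had CKO pools that did not overlap with WT pools, a separation seen in 11.3% of all genes. That was 6.45% of the tested members by either count, close to the first of these background shares and below the other. By sign, 21 members were higher and 10 lower in CKO (16 and 15 without the second array of WT pool 1, and 15 and 16 on slide 2), beside 9052 and 9282 of all genes. Their median difference was 0.03, and that of all genes was -0.00317.

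**Figure D1:**
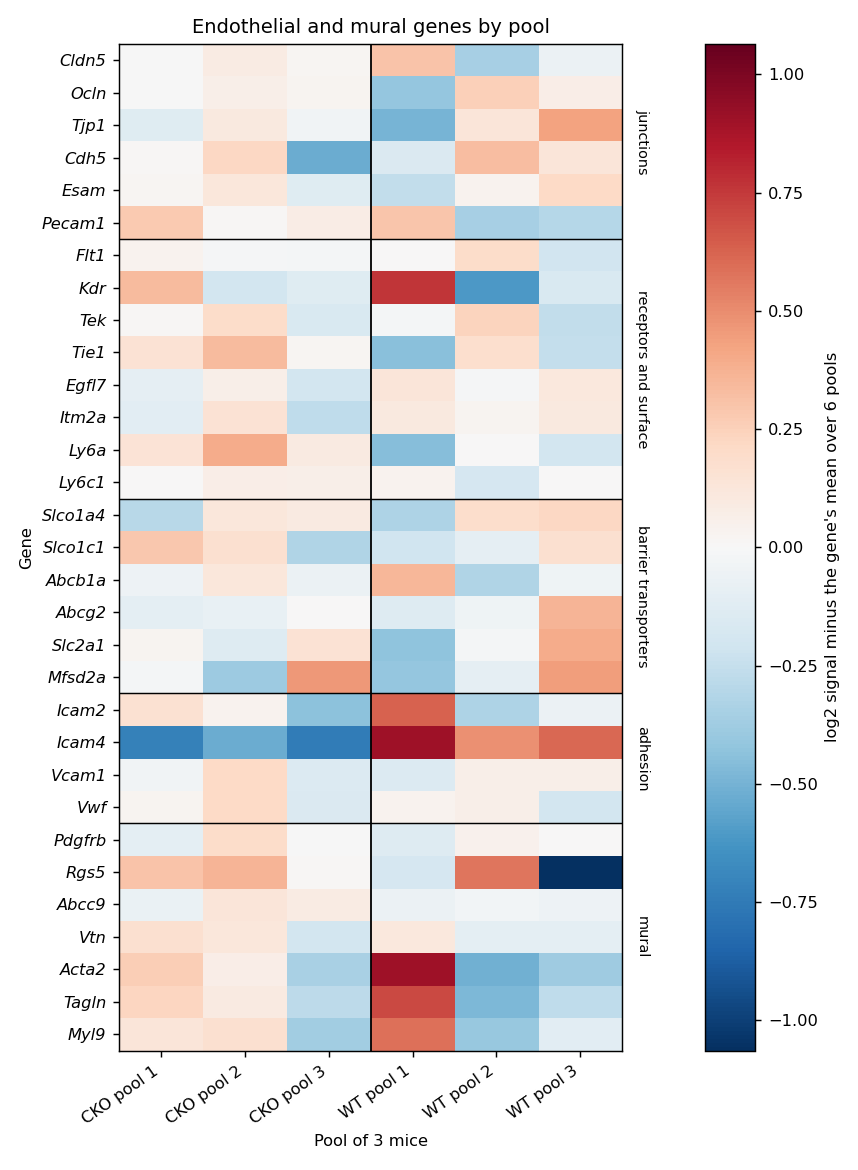
Log2 signal of the 31 tested members in 3 CKO and 3 WT pools, each as the deviation from the gene's own mean over the 6 pools (colour scale), with genes in rows by role. Icam4 is the only row in which every CKO pool is blue and every WT pool is red by over 0.4, and Acta2, Tagln, Myl9 and Kdr are highest in WT pool 1.

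How tightly these pools bounded a difference varied by gene. The 95% confidence interval lay within a 2-fold change in either direction (log2 -1 to 1) for 29 of 31 members, and for 30 with the block; within 0.5 it lay for 15 and, with the block, 22. The interval held 0 for 29 members, all but Icam4 and Ly6a. A difference under 0.25 in size was measured for 27 members.

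**Figure D2:**
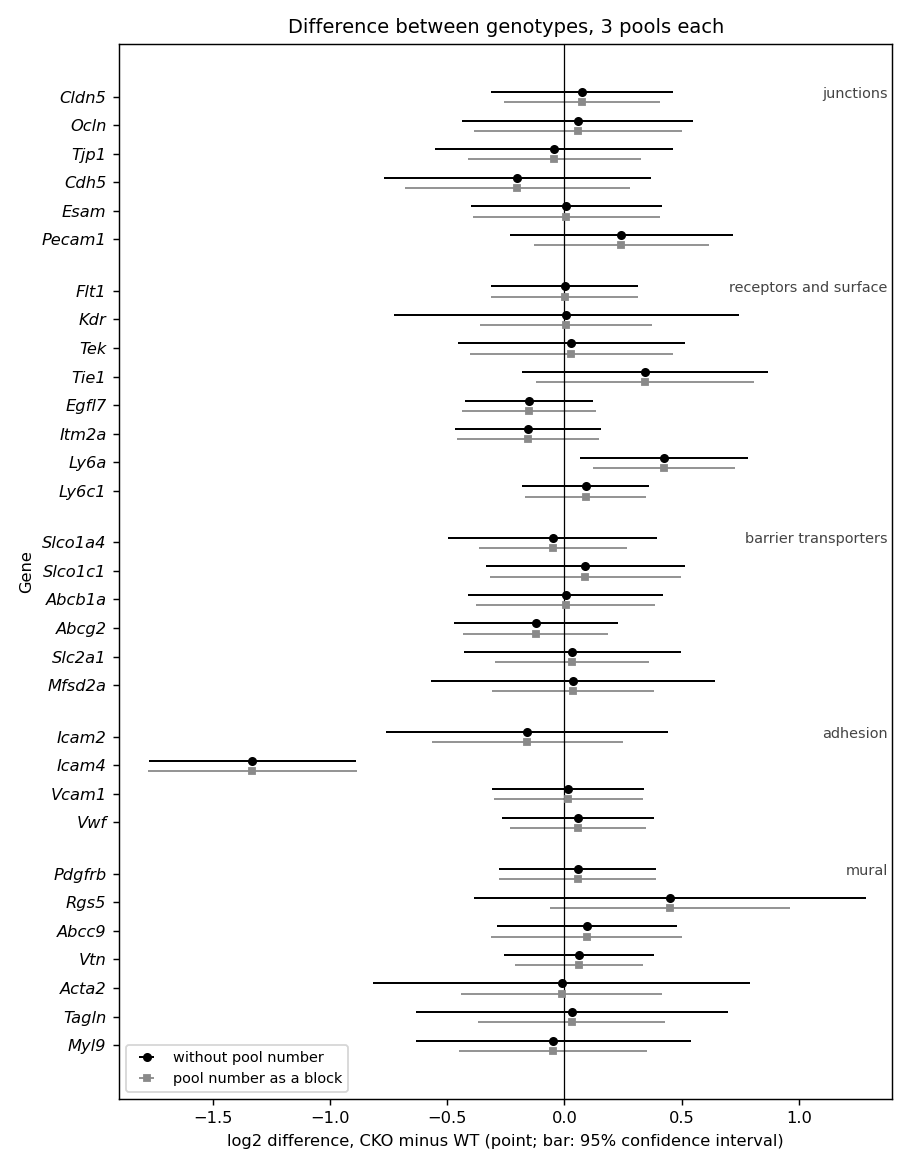
Log2 difference of CKO minus WT (points) with its 95% confidence interval (bars) for each tested member, 3 pools per genotype, without pool number (black) and with pool number as a block (grey). All intervals cross 0 except those of Icam4 (-1.77 to -0.89) and Ly6a (0.07 to 0.78), and the widest among the rest is that of Rgs5.

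Of the adhesion molecules, Icam4 stood apart. ICAM-4 is an immunoglobulin-superfamily adhesion molecule best known from red blood cells, where it binds integrins. Icam4 was at -3.43, -3.23 and -3.45 in CKO pools, against -1.80, -2.22 and -2.09 in WT pools. The highest CKO pool lay about 1 log2 unit below the lowest WT pool, and the probe was well above background on all 8 arrays. The mean was -3.37 ± 0.12 in CKO and -2.04 ± 0.21 in WT (SD, n = 3 pools each), so the WT signal was 2.52-fold the CKO signal. The difference of -1.33 (SE 0.19) missed the threshold in limma (adjusted p = 0.129). It passed with pool number as a block (adjusted p = 0.0245), although its SE was no smaller there (0.20). An exact permutation test of 3 pools against 3 gives p = 0.1 here, the smallest it can give.

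Icam4 was read by 1 probe, on chromosome 9, and its sequence is shown because the result rests on it. It shares no run of 16 or more bases with a probe of another gene on the array.
Icam4: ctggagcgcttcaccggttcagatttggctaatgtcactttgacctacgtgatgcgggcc
Within slides, Icam4 differed by -1.33 on slide 1 and by -1.47 on slide 2 (adjusted p = 0.138 and 1.000), and by -1.35 with slide as a block (adjusted p = 0.151). Both slides held pool 1, so the slide values are not independent of each other. With 1 pool left out at a time the Icam4 difference ran from -1.42 to -1.21. Leaving out the second array of WT pool 1 gave -1.29 (adjusted p = 0.0109), and first arrays alone gave -1.34 (adjusted p = 0.0100).

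Red cell transcripts were set beside Icam4, since the protein is known from that lineage. Of 10 erythroid markers on the array, 3 were measured (Hba-a1, Alas2 and Slc4a1), and others, among them Epb42, Ahsp, Rhag, Rhd and Klf1, did not meet the background rule in either genotype. Hba-a1, an alpha globin, was at 6.09, 5.72 and 5.53 in CKO pools and at 6.33, 5.39 and 5.78 in WT pools, with groups that overlapped (difference -0.06, SE 0.25). The erythroid markers' summed signal, nearly all of it Hba-a1, ran from 5.54 to 6.10 in CKO pools and from 5.40 to 6.34 in WT pools. Alas2, a heme synthesis enzyme, differed by 0.09 (SE 0.22) and Slc4a1, the red cell anion exchanger, by 0.00 (SE 0.38). The part of red cells in the Icam4 difference was not tested.

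Icam4 lies between Icam1 and Icam5 in gene order. Icam5 encodes telencephalin, an adhesion molecule of forebrain neurons, and was named because it is the next gene. It was at 5.01, 4.90 and 5.05 in CKO pools, against 5.45, 5.35 and 5.22 in WT pools. Every CKO pool was below every WT pool, by a smaller margin than for Icam4 (difference -0.36, SE 0.13, adjusted p = 0.786, and 0.345 with the block). Pools did not overlap, in either direction, for 11.3% of all genes. Of the 8 other measured protein-coding genes within 8 places of Icam4, Icam5 among them, 4 were higher and 4 lower in CKO, and 0 passed with or without the block. Their differences ran from -0.36 to 0.24, and Icam5 was the 1 gene at an unadjusted p under 0.05.

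None of the other tested adhesion molecules passed, with or without the block. Icam2, a constitutive endothelial ligand of leukocyte integrins, was at 0.04, -0.08 and -0.56 in CKO pools and at 0.51, -0.44 and -0.18 in WT pools (difference -0.16, SE 0.26). Vcam1, which binds the leukocyte integrin VLA-4, was at 0.65, 0.90 and 0.55 in CKO pools and at 0.55, 0.75 and 0.76 in WT pools (difference 0.02, SE 0.14). Its second probe gave 0.30 (SE 0.25). Vwf, the platelet-tethering von Willebrand factor of endothelial granules, was at 1.31, 1.49 and 1.13 in CKO pools and at 1.32, 1.35 and 1.09 in WT pools (difference 0.06, SE 0.14). Groups overlapped for all of these. The 3 molecules that were not tested were dim in both genotypes. Sele, E-selectin, was not well above background on any array. Icam1 was above it on 1 CKO array and on 0 WT arrays, with measured means of -5.03 in CKO and -5.58 in WT, and no fold is given since the bound is under 1. Selp, P-selectin, was above background on 3 of 4 arrays in CKO and on 3 of 4 in WT, at -4.89, -5.21 and -5.25 in CKO pools and at -4.36, -5.52 and -4.78 in WT pools. The 4 tested adhesion genes had a median difference of -0.07.

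**Figure D3:**
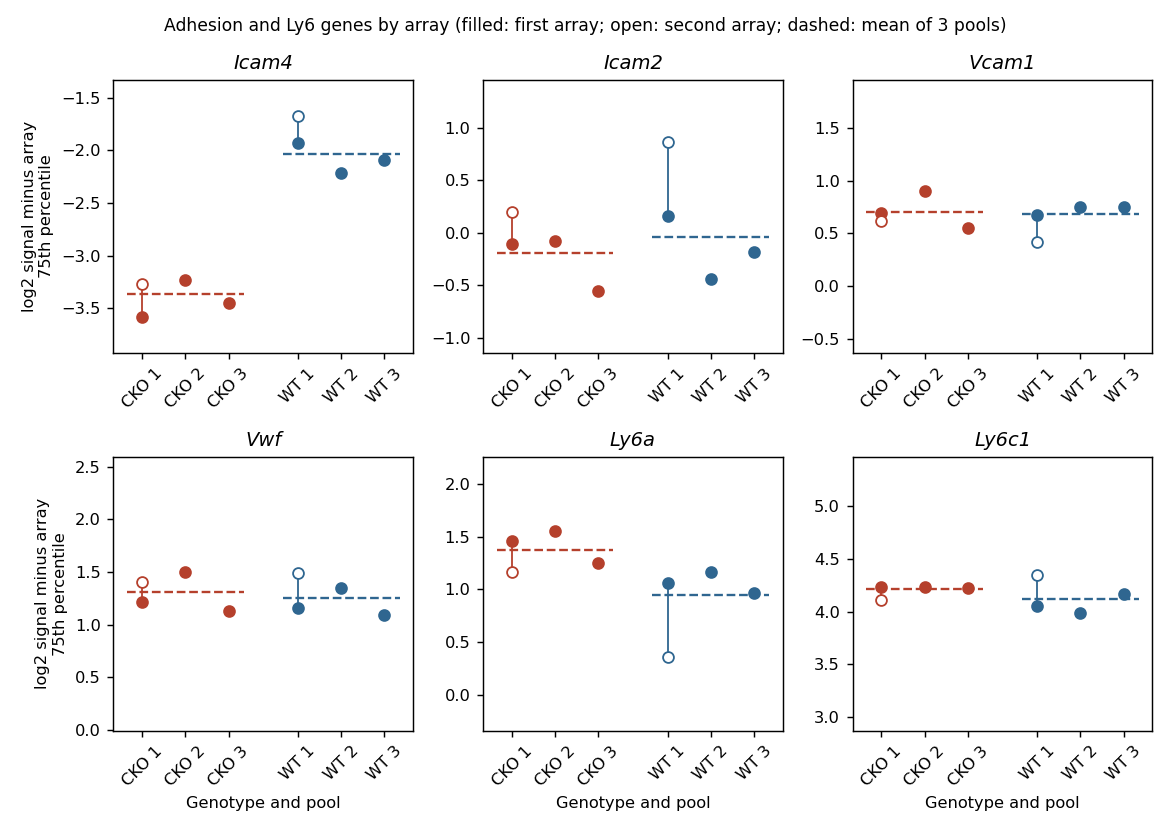
Log2 signal relative to the array 75th percentile on each array for 4 adhesion genes and 2 Ly6 genes, CKO pools left and WT pools right (filled points, first arrays; open points, second arrays; dashed lines, means of 3 pools). Icam4 is lower on all 4 CKO arrays than on all 4 WT arrays, whereas arrays of the genotypes overlap for Icam2, Vcam1, Vwf and Ly6c1, and just overlap for Ly6a.

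Among endothelial receptors and surface genes, Ly6a was the 1 member with an interval clear of 0. Ly6a encodes Sca-1, a GPI-anchored protein known in mouse brain from endothelium. It was at 1.31, 1.56 and 1.25 in CKO pools, against 0.71, 1.17 and 0.97 in WT pools. The lowest CKO pool was just above the highest WT pool. The difference of 0.43 (SE 0.16), a 1.34-fold higher CKO mean, did not pass (adjusted p = 0.801, and 0.344 with the block). On single arrays the genotypes were not apart: the second array of CKO pool 1 read 1.16, and the array of WT pool 2 read 1.17. The lowest value of all, 0.36, was that of the second array of WT pool 1. Without that array the difference was 0.31 (adjusted p = 0.231). It was 0.39 on slide 1, 0.55 on slide 2 (pool 1 was on both slides) and 0.44 with slide as a block. Ly6c1, the next gene and likewise endothelial in brain, was at 4.17, 4.23 and 4.23 in CKO pools and at 4.20, 3.99 and 4.17 in WT pools (difference 0.09, SE 0.12). Its second probe gave 0.17 (SE 0.12). Of 4 other measured coding genes within 8 places of Ly6a, 4 were higher in CKO (0.09 to 0.50) and 0 passed.

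Receptor tyrosine kinases of the endothelium followed. Tie1, an orphan receptor that modulates angiopoietin signalling, was at -3.27, -3.08 and -3.40 in CKO pools and at -3.87, -3.24 and -3.67 in WT pools, with an overlap between CKO pools and WT pool 2. Its difference was 0.34 (SE 0.23, adjusted p = 0.999), and its signal cleared background on 4 of 4 arrays in CKO and on 3 of 4 in WT. Tek, which encodes the angiopoietin receptor TIE2, was at -3.07, -2.88 and -3.24 in CKO pools and at -3.10, -2.84 and -3.34 in WT pools (difference 0.03, SE 0.21). These probes target matching stretches of related genes, both on chromosome 4, and are shown with the bases that match in capitals. Of 57 aligned bases, 39 (68.4%) were the same.
Tek: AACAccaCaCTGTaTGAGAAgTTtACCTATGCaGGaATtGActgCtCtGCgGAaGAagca
Tie1: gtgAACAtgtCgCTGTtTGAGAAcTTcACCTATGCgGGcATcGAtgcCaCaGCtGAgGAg
No run of 16 or more bases is shared between them.

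The VEGF receptors did not differ between genotypes beyond their spread. Flt1, VEGF receptor 1, was at 0.90, 0.85 and 0.84 in CKO pools and at 0.87, 1.06 and 0.65 in WT pools (difference 0.00, SE 0.14). A second probe gave -0.01 (SE 0.15), and another was not above background on any array. Kdr, VEGF receptor 2 and the main signalling receptor for VEGF-A, was at 1.71, 1.18 and 1.24 in CKO pools and at 2.14, 0.76 and 1.21 in WT pools (difference 0.01, SE 0.32). Pool 1 was highest in both genotypes. Its second probe read -1.71, -1.69 and -1.88 in CKO pools and -1.69, -1.63 and -2.19 in WT pools, with pool 1 not set apart. Egfl7, a secreted angiogenic factor of endothelium, was at 2.54, 2.70 and 2.44 in CKO pools and at 2.76, 2.63 and 2.75 in WT pools (difference -0.15, SE 0.12). Itm2a, a membrane protein of brain endothelium, differed by -0.16 (SE 0.14). The median difference of the 8 genes was 0.02.

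All 6 junction genes were measured and none passed. Cldn5, the claudin that seals brain endothelial tight junctions, was at 2.76, 2.85 and 2.78 in CKO pools and at 3.06, 2.40 and 2.69 in WT pools. The CKO values lay inside the WT range (difference 0.07, SE 0.17, 95% confidence interval -0.31 to 0.46). Pecam1, the junctional adhesion protein CD31, was at -0.83, -1.09 and -1.03 in CKO pools and at -0.81, -1.46 and -1.41 in WT pools (difference 0.24, SE 0.21). The difference was 0.42 without the second array of WT pool 1 (adjusted p = 0.17), 0.45 without WT pool 1 and 0.02 on slide 2. Cdh5, VE-cadherin of adherens junctions, was at -2.89, -2.68 and -3.43 in CKO pools and at -3.05, -2.57 and -2.77 in WT pools (difference -0.20, SE 0.25). Without CKO pool 3 that difference was 0.01. Ocln and Tjp1, the tight junction protein occludin and its scaffold ZO-1, differed by 0.06 (SE 0.22) and -0.04 (SE 0.22), and the second Ocln probe by -0.18 (SE 0.29). Esam, a junctional adhesion molecule, differed by 0.01 (SE 0.18). The median of the 6 was 0.03.

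All 6 barrier transporters were measured, and their differences lay between -0.12 and 0.09. Slc2a1 encodes the glucose transporter GLUT1 and stood at 3.25, 3.09 and 3.38 in CKO pools and at 2.79, 3.20 and 3.62 in WT pools (difference 0.03, SE 0.20). Mfsd2a, the carrier of DHA-containing lysolipids that limits transcytosis, was at 1.15, 0.78 and 1.63 in CKO pools and at 0.76, 1.08 and 1.62 in WT pools (difference 0.04, SE 0.26). Pool 3 was the highest for both genes in both genotypes. From pool 2 to pool 3, 16 of 31 members moved the same way in both genotypes (51.6%, against 55.4% of all genes). Of these, 5 were higher and 11 lower in pool 3, whereas of all genes 6037 were higher and 4098 lower there in both genotypes. Pools 2 and 3 differ in sex, age and slide at once, which cannot be told apart.

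The organic anion transporters did not pass. Slco1a4 was at -0.21, 0.20 and 0.18 in CKO pools and at -0.25, 0.26 and 0.30 in WT pools (difference -0.05, SE 0.19). Slco1c1, which carries thyroxine, was at 1.19, 1.07 and 0.58 in CKO pools and at 0.69, 0.81 and 1.07 in WT pools (difference 0.09, SE 0.19), and its second probe gave 0.27 (SE 0.17). On slide 1 alone Slco1c1 differed by 0.37 (adjusted p = 0.385). CKO pool 3 was its lowest pool and WT pool 3 the highest of WT. Of the efflux pumps, Abcg2 (breast cancer resistance protein) was at 1.15, 1.17 and 1.26 in CKO pools and at 1.11, 1.21 and 1.62 in WT pools (difference -0.12, SE 0.15). Abcb1a (P-glycoprotein) differed by 0.00 (SE 0.18), with WT pools from 0.20 to 0.87 around CKO pools from 0.46 to 0.64. The median of the 6 was 0.02.

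Of the 7 mural genes, none passed. Rgs5, a regulator of G protein signalling and pericyte marker, was at -1.47, -1.41 and -1.76 in CKO pools, against -1.95, -1.20 and -2.83 in WT pools. The WT pools spread on both sides of the CKO pools, and WT pool 3 was lowest. The difference was 0.45 (SE 0.37, adjusted p = 0.999), the largest positive one among the members, with a confidence interval from -0.39 to 1.29. It was 0.01 on slide 1 and 0.91 on slide 2, and it was 0.03 without WT pool 3 and 0.85 without WT pool 2. Abcc9, the sulfonylurea receptor subunit of the pericyte potassium channel, was at -2.57, -2.37 and -2.41 in CKO pools and at -2.56, -2.53 and -2.56 in WT pools (difference 0.10, SE 0.17). Vtn, vitronectin, was at 3.28, 3.24 and 2.91 in CKO pools and at 3.22, 3.01 and 3.01 in WT pools (difference 0.06, SE 0.14). Pdgfrb, the PDGF-B receptor needed for pericyte recruitment, was at -0.66, -0.37 and -0.56 in CKO pools and at -0.69, -0.51 and -0.55 in WT pools (difference 0.06, SE 0.15).

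The contractile genes were spread widely between pools of the same genotype, so their genotype differences were measured with little precision. Acta2, smooth muscle alpha-actin, was at 2.93, 2.75 and 2.33 in CKO pools and at 3.58, 2.16 and 2.30 in WT pools (difference -0.01, SE 0.35). Tagln, the actin-binding protein transgelin, was at 2.12, 2.00 and 1.62 in CKO pools and at 2.60, 1.42 and 1.62 in WT pools (difference 0.03, SE 0.29). Myl9, a myosin regulatory light chain, was at 2.63, 2.67 and 2.13 in CKO pools and at 3.08, 2.10 and 2.39 in WT pools (difference -0.05, SE 0.26). WT pool 1 was the highest of the 6 pools for all of them. Confidence intervals of the differences ran from -0.81 to 0.79 (Acta2), -0.63 to 0.70 (Tagln) and -0.64 to 0.54 (Myl9). With pool number as a block the SE fell to 0.19 for Acta2 and to 0.18 for Tagln and Myl9, and the differences did not pass. Without WT pool 1, Acta2 differed by 0.44 and Tagln by 0.39 (adjusted p = 0.236 and 0.246). The median over the 7 mural genes was 0.06.

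Spread between pools differed widely among members. The pooled within-genotype SD was above the 90th percentile of all genes for 4 members: Acta2 (percentile 96.5), Rgs5 (96.4), Kdr (94.1) and Tagln (90.7). It was lowest for Abcc9 (percentile 4.04) and Ly6c1 (5.74). Markers of some other cell types also set WT pool 1 apart. Relative to the WT mean, the contractile members averaged 0.20, 0.11 and -0.34 in CKO pools and 0.73, -0.47 and -0.26 in WT pools. On the same scale, 3 erythroid markers averaged 0.20, 0.06 and -0.22 in CKO pools and 0.60, -0.40 and -0.20 in WT pools. The 11 choroid plexus markers averaged 0.92, 0.99 and 0.44 in CKO pools and -1.22, 0.46 and 0.76 in WT pools, so WT pool 1 was lowest there. Neuronal, astrocyte and oligodendrocyte markers averaged 0.01, -0.04 and 0.01 in WT pool 1, close to the WT mean. The part of these cell types in the members' values was not tested.

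Both pools that were run on 2 arrays had 1 repeat each, with first arrays on slide 1 and second arrays on slide 2. A difference between repeats thus holds slide as well as technical spread, and these cannot be told apart. Between the arrays of CKO pool 1, 2 of 31 members differed by over 0.5 (6.45%, against 15.1% of all 23633 probes kept). Between those of WT pool 1, 12 members did (38.7%, against 50.9% of all probes). The median size of the difference was 0.20 for CKO pool 1 and 0.39 for WT pool 1. For 28 of 31 members the second array moved the same way in both pools, as it did for 21663 of all 23633 probes. The probe that stood for Kdr moved most, up by 0.88 in CKO pool 1 and by 1.76 in WT pool 1. It read 1.27 and 2.16 on the CKO arrays, and 1.26 and 3.02 on the WT arrays. The second Kdr probe moved the other way, from -1.64 to -1.79 on the CKO arrays and from -1.56 to -1.82 on the WT arrays. Pecam1 was 0.43 and 1.07 higher on the second array, Acta2 0.38 and 0.87, and Tagln 0.39 and 0.86. Rgs5 was 0.44 and 0.96 lower, and Tjp1 0.56 and 0.98 lower. Icam4 moved by 0.32 in CKO pool 1 and by 0.26 in WT pool 1, which is small beside its difference between genotypes. On first arrays alone, Acta2 was at 2.74 in CKO pool 1 and at 3.14 in WT pool 1, still the highest WT value.

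**Figure D4:**
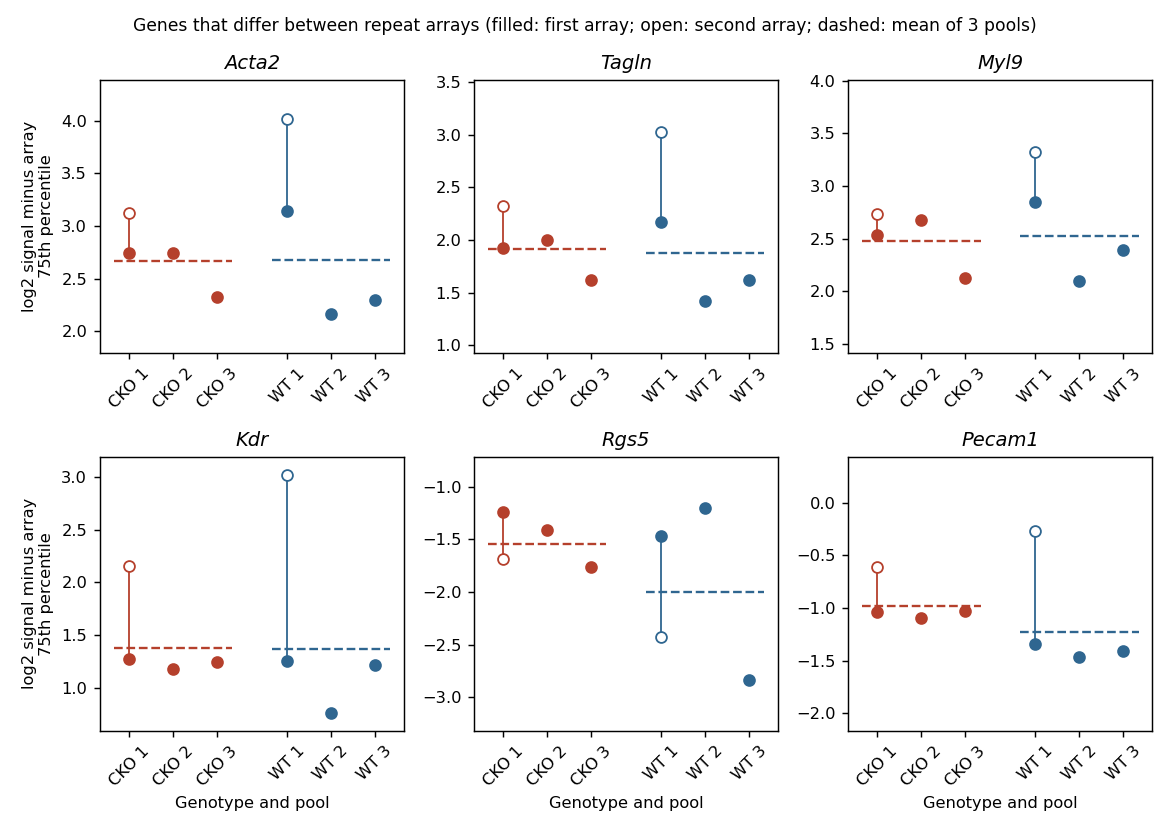
Log2 signal relative to the array 75th percentile on each array for 3 contractile genes, Kdr, Rgs5 and Pecam1, CKO pools left and WT pools right (filled points, first arrays; open points, second arrays joined to their mates; dashed lines, means of 3 pools). Second arrays are higher for all but Rgs5, in both genotypes, and the gap is wider in WT pool 1 than in CKO pool 1. Kdr is shown by its brighter probe alone.

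Further genes of the same pathways gave the wider picture. Of 38 other endothelial genes tested, 0 passed with or without the block, 19 were higher and 19 lower in CKO, and the median difference was 0.01. Cd34, a sialomucin of endothelium and progenitor cells, was at 0.43, 0.76 and 0.41 in CKO pools, against 0.77, 1.22 and 1.31 in WT pools, with every CKO pool below every WT pool (difference -0.57, SE 0.18, adjusted p = 0.633). Eng, the TGF-beta co-receptor endoglin, was at -1.19, -1.07 and -1.09 in CKO pools, against -1.26, -1.48 and -1.71 in WT pools (difference 0.37, SE 0.17, adjusted p = 0.941). Pools of the genotypes did not overlap for 3 of these 38 genes, beside 11.3% of all genes. Of 22 other mural genes tested, 0 passed, 12 were higher and 10 lower, and the median was 0.01. Tpm1, a tropomyosin that many cell types express, differed by 0.42 (SE 0.14) and Ednra, the endothelin A receptor, by -0.35 (SE 0.19), with adjusted p of 0.715 and 0.998.

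Of 31 signals and receptors of vessel growth and Wnt signalling, 0 passed, 15 were higher and 16 lower, and the median difference was -0.01. Wnt7b, a neural ligand that induces the barrier, was at -1.31, -1.10 and -0.82 in CKO pools, against -1.56, -1.68 and -2.02 in WT pools (difference 0.68, SE 0.20, adjusted p = 0.575). Pdgfb, the ligand of the receptor on pericytes, was at 1.31, 0.87 and 1.05 in CKO pools, against 0.81, 0.78 and 0.62 in WT pools (difference 0.34, SE 0.15, adjusted p = 0.906). For both genes the lowest CKO pool exceeded the highest WT pool. Pools did not overlap for 3 of the 31 genes, beside 11.3% of all genes. Of 16 measured ligands and partners of the adhesion molecules, 0 passed, 9 were higher and 7 lower, and the median was 0.11. Pools did not overlap for 4 of the 16 (1 higher and 3 lower in CKO), beside 11.3% of all genes. An unadjusted p under 0.05 in limma was reached by 3 of the 16 (1 higher and 2 lower), beside 5.48% of all genes. Podxl2, a selectin ligand also known as endoglycan, was at 2.33, 2.37 and 2.43 in CKO pools, against 1.67, 1.85 and 1.65 in WT pools (difference 0.65, SE 0.11, adjusted p = 0.163, and 0.0569 with the block). Itga4, the VLA-4 subunit that binds VCAM-1, was at -1.67, -1.37 and -1.39 in CKO pools, against -1.002, -0.465 and -0.523 in WT pools (difference -0.81, SE 0.19, adjusted p = 0.326, and 0.0616 with the block).

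Markers of neighbouring cell types were read the same way. Platelet markers, of which 4 of 8 were measured, had a median difference of -0.03, fibroblast and meningeal markers (11 of 11) of -0.12, microglial markers (8 of 8) of 0.06, and blood leukocyte markers (7 of 9) of 0.17. Astrocyte markers (8 of 8), whose endfeet cover the vessels, had a median of 0.00. Gfap, their intermediate filament, was higher in CKO and passed with the block but not without it (0.68, SE 0.12, adjusted p = 0.046 with the block). Oligodendrocyte markers had a median of 0.24 (7 of 7 higher) and neuronal markers of -0.11 (2 of 7 higher). All 11 choroid plexus markers were higher in CKO by sign, with a median of 0.84 and WT pool 1 far below the other pools. None of these lists held a gene that passed without the block.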

How the data were processed

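RNA of pooled hippocampus was measured on 8 Agilent arrays in the Cy5 channel alone. Spot intensities were deposited by the authors as Agilent Feature Extraction 11.5 gave them, per the submitters' processing notes. Background was subtracted in the processed intensity, with no scaling between arrays, per the file headers. The linear signal of the authors' deposited value table was an alternative.

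Members and gene lists were chosen with earlier results of these data known. The processed signal was taken to log2 and the array 75th percentile subtracted; outlier spots were dropped, and spots of a probe and both arrays of pool 1 were averaged (n = 3 pools). Of 39429 probes, 27508 were named through RefSeq accessions, 3544 by symbol, 404 by synonym, and 7973 kept the file's name; all member probes kept their symbol. Genes with at least 2 pools per genotype (18334) were compared with limma 3.58.1 (lmFit, then eBayes with a trend; R 4.3.3) by a two-sided test, with Benjamini-Hochberg adjustment over all genes, threshold 0.05. The fit was tested on simulated data.

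The rule for named genes took the 3 of smallest unadjusted p per role, any past the threshold with or without the block or with pools that did not overlap (15 members), and up to 2 per pathway list. Pool values of other members, such as Acta2, Kdr and Slc2a1, fall outside the rule and were chosen after their values were seen. Pools of 1 number match in sex and age between genotypes, per the labels. They deviated together (r = 0.548, 0.334 and 0.131 across genes for pools 1, 2 and 3, all over 0.1), so the block is reported. Between pools of different number r was up to 0.123, close to that of pool 3. With first arrays alone r was 0.083, 0.057 and 0.139 across probes for pools 1, 2 and 3. CKO pool 1 against WT pool 2 then gave 0.082, so the pairing behind the block was weak without the repeat arrays. Whether they were dissected or labelled together is not stated. The p-values without the block cover the spread between pools of a genotype. Those with the block cover the spread left after pool number is fitted. The number of pools, 3 per genotype, limits precision. Coordinates are not printed because the arrays' build (mm9) is not the build of the RefSeq table behind gene order (GRCm38.p6). Some genes are not reported here.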

Additional observations from a re-analysis of the deposited data

How the results depend on the processing

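The member count and the role medians were recomputed under 25 alternatives, 2 of them (the block combined with leaving out repeat arrays) added after seeing the data. The count of members passing was 1, Icam4, under 7: the block (adjusted p = 0.0245), the block with quantile scaling (0.0392), first arrays alone (0.0100) or with the block (0.0363), without the second array of WT pool 1 (0.0109) or with the block (0.0374), and array weights (0.0172). It was 0 under the other 18. Icam4 kept its sign in all 25 (-1.47 to -1.17), with adjusted p up to 1.000, and Ly6a kept its sign (0.31 to 0.55) and never passed. The block changed no other member's call. Over all genes the count of calls was 8 as reported, 103 with the block, 68 with the block and quantile scaling, 5 with normexp, quantile scaling, all-array detection or probe means, 0 on slide 2, 125 with first arrays, 108 without the second array of WT pool 1, 57 and 70 with the block in those settings (57 without that array, 70 with first arrays), 123 with array weights, 3 with the authors' table, and 0 to 21 with 1 pool left out, 21 being without WT pool 1.

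Role medians moved by over 1 SD between pools for receptors on slide 1 (0.105), adhesion on slide 2 (-0.274), junctions without the second array of WT pool 1, with or without the block (-0.080), and with array weights (-0.092), and transporters with array weights (-0.196). With 1 pool left out they ran from -0.127 to 0.112 (junctions), -0.082 to 0.081 (receptors), -0.165 to 0.122 (transporters), a move of over 1 SD at the lower end of each (without WT pool 1 for junctions and transporters, without WT pool 3 for receptors), -0.155 to 0.058 (adhesion) and -0.009 to 0.233 (mural). Signs turned for Icam2 on slide 1 (0.053), for Cldn5 (-0.095), Slco1a4 (0.031), Vwf (-0.026) and Vtn (-0.024) on slide 2, and for Slco1c1 with array weights (-0.040). With 1 pool left out, values ran from -0.084 to 0.247 (Cldn5), -0.361 to 0.014 (Cdh5), -0.227 to 0.085 (Slco1a4), -0.033 to 0.271 (Slco1c1), -0.221 to 0.030 (Abcg2), -0.361 to 0.116 (Icam2), -0.035 to 0.149 (Vwf) and -0.0056 to 0.178 (Vtn). The causes were not tested. Median scaling moved the median of all genes to -0.058 and dropping the filter to -0.069.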
